A study of Rattus norvegicus with 2 samples.

Results

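The genes described here are 10 rat genes of the CCN family and the YAP pathway, chosen by name: the CCN family genes Ccn1, Ccn2, Ccn3, Ccn4 and Ccn5, the YAP target genes Ankrd1 and Amotl2, the coactivator genes Yap1 and Wwtr1 (which codes for TAZ), and the DNA-binding partner gene Tead1. They stand among 22093 genes that had a probe set with a symbol of their own. The choice was made with results of these same arrays known, so the differences of these genes are a description. The samples were neural stem cells (NSCs) from whole brains of Sprague-Dawley (SD) rat embryos at embryonic day 13.5, grown as neurospheres for 10 days with bFGF and EGF. In the co-cultured sample the neurospheres were then kept for 14 days on top of ectodermal mesenchymal stem cells (EMSCs), which came from transgenic rats with green fluorescent protein and had been plated beforehand, in a medium with fetal bovine serum, and the NSCs were recovered by fluorescence-activated sorting. In the mono-cultured sample, the control, NSCs were kept for 14 days without EMSCs. Whether the mono-cultured cells had serum or passed through the sorter is not given in the sources used here, and neither is the number of animals. Each condition has 1 array, so there is no replicate check, no error of a difference and no test.

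CCN proteins are secreted, cysteine-rich proteins of the extracellular matrix that bind integrins, heparan sulfate proteoglycans and growth factors and modulate adhesion, migration and matrix production. YAP and TAZ are transcriptional coactivators. The Hippo kinases LATS1 and LATS2 phosphorylate them and keep them in the cytoplasm, and when the cascade is inactive they enter the nucleus and bind TEAD factors. Spreading, stiff matrix and serum are known to favour nuclear YAP, and Ccn1, Ccn2, Ankrd1 and Amotl2 are textbook targets. In the developing brain, YAP is known from neural progenitors, and CCN genes are prominent in mesenchymal and vascular cells. Because this control acts largely on phosphorylation and location of the proteins, mRNA levels of the coactivators do not measure their activity.

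All 10 genes were higher in co-cultured NSCs than in the control. All levels are RMA values on the log2 scale, and a difference is always co-culture minus mono-culture. Of the 10 genes 9 were kept, which means that the higher of the 2 levels reached 4.97, the median of all gene levels. Among all 11849 kept genes the share that was at least 2-fold higher in co-culture was 5.04% and the share that was 2-fold lower was 5.54%, with a median difference of -0.06. Of the 9 kept genes described here 5 were at least 2-fold higher (Ccn1, Ccn2, Ccn4, Ccn5 and Tead1) and 0 were 2-fold lower. At 1.5-fold, 8 of the 9 were higher, where 9.24% of kept genes were, and at 4-fold 3 were (Ccn1, Ccn2 and Ccn4), where 1.80% were. The choice of genes used these arrays, so nothing is read from these shares. The median difference was 1.19 over the 9 kept genes and 1.09 over all 10. Ccn2 and Ccn4 reached 4.97 on the co-cultured array only. Negative control probe sets, 1153 in number, show how much signal arises without a target, and their 95th percentile was 6.64. In co-culture 9 of the 10 genes lay above it, and in mono-culture 2 did, Ccn1 and Wwtr1. Each of the 10 genes was read by 1 probe set, so agreement between probe sets of a gene could not be checked for them.

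**Figure D1:**
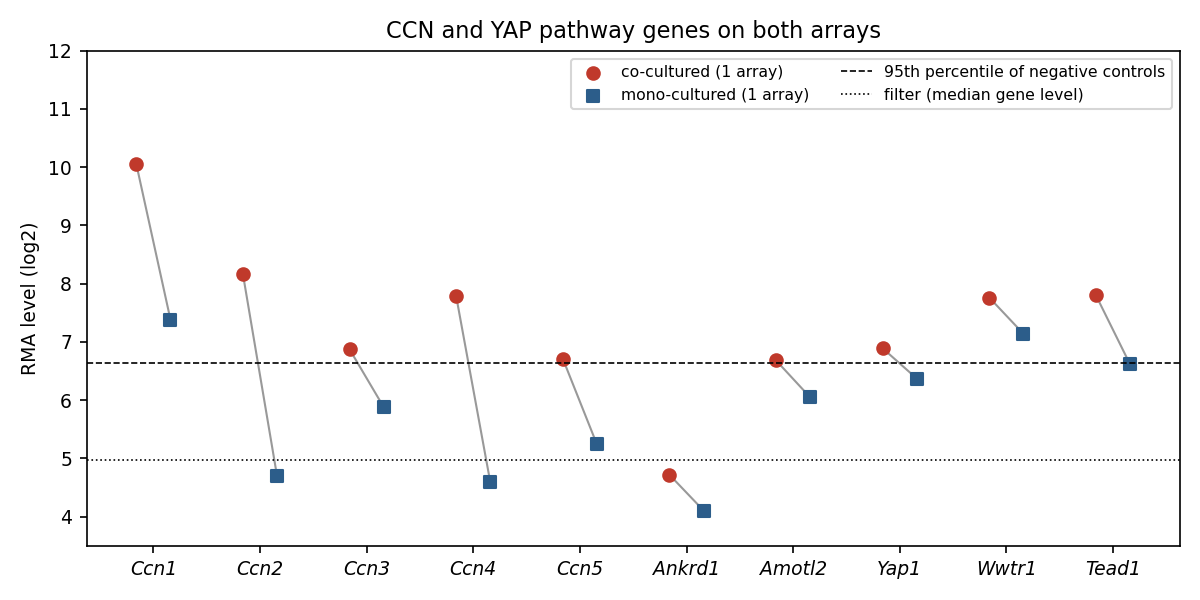
RMA level (log2, vertical axis) of the 10 genes on the co-cultured array (circles) and the mono-cultured array (squares), joined by a line for each gene, with no error bars because each condition has 1 array. The dashed line marks the level below which 95% of negative controls lay (6.64) and the dotted line the filter (4.97); every circle lies above its square, and Ankrd1 lies below both lines on both arrays.

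Genes for the secreted CCN proteins showed the 4 largest measured differences of the set, an order that did not hold when levels below 6.64 were raised to it, where Tead1 (1.16) passed Ccn4 (1.14) and Ccn5 (0.07) fell behind Wwtr1, Yap1 and Ccn3. Ccn2 (connective tissue growth factor, gene ID 64032), a matrix-inducing protein and a standard readout of YAP and of TGF-beta signalling, had a level of 8.16 in co-cultured and 4.69 in mono-cultured NSCs. Its difference of 3.47, an 11.1-fold higher level, ranked 49th of the 11849 kept genes. The mono-cultured level lay inside the range of the negative controls, above 73.1% of them, so the gene was bright in co-culture and dim in mono-culture. With the mono-cultured level set to 6.64 the Ccn2 level was 2.86-fold higher in co-culture. Ccn4 (Wnt1-inducible signalling pathway protein 1, gene ID 65154), first known as a gene induced by Wnt1, had the same shape. Its level was 7.78 in co-cultured and 4.59 in mono-cultured NSCs, a difference of 3.19. With the mono-cultured level set to 6.64 the Ccn4 level was 2.20-fold higher in co-culture. Ccn1 (Cyr61, gene ID 83476), an immediate early matricellular protein that signals through integrins, lay above 6.64, the 95th percentile of the negative controls, on both arrays. The Ccn1 level was 10.05 in co-cultured and 7.38 in mono-cultured NSCs, so its difference of 2.67, or 6.36-fold, is the only difference of 2-fold or more in the set for which both levels exceeded 6.64. As Ccn1 exceeded 97.2% of the negative controls even in mono-culture, its difference did not change when dim levels were raised.

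The remaining CCN genes differed less. Ccn5 (gene ID 29576), which lacks the C-terminal cystine knot of the other family members and is known to oppose Ccn2 in muscle and fibroblasts, had a level of 6.71 in co-cultured and 5.24 in mono-cultured NSCs, a difference of 1.47. The co-cultured Ccn5 level is only just above 6.64, and with the mono-cultured level raised to 6.64 the difference was 0.07. Ccn3 (Nov, gene ID 81526), a family member found in neurons, glia and vascular muscle that often runs counter to Ccn2, had a level of 6.87 in co-cultured and 5.88 in mono-cultured NSCs. Its difference of 0.99 lay just short of 2-fold, while that of Tead1 (1.19) was the nearest past it. Subtracting the median of each array brought Ccn3 to 1.06, past 2-fold, and it also passed 2-fold under the other normalizations. The sixth family gene, Ccn6, was not among the 10 and was dim, with a level of 3.49 in co-cultured and 3.33 in mono-cultured NSCs. Thus 4 of the 5 CCN genes in the set were higher by 2-fold or more in co-culture, where 5.04% of all kept genes were. With dim levels raised, Ccn1, Ccn2 and Ccn4 stayed past 2-fold and Ccn5 did not. The genes were chosen with results of these arrays known, so nothing is read from this count. The arrays read bulk samples, so it is not known which cells carried each transcript, and fewer cells of a type cannot be told apart from less RNA per cell.

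The promoters of Ccn1 and Ccn2 are shown because both are textbook TEAD targets and both differed by more than 4-fold. They are RefSeq sequences of build GRCr8, 250 bases before the annotated start, written 5′ to 3′ on the strand of the gene. Capitals mark CATTCC or its reverse complement GGAATG, the core of the motif that TEAD factors bind. The Ccn1 stretch lies at chr2:237225690-237225939 on the minus strand and the Ccn2 stretch at chr1:22624615-22624864 on the minus strand. For Amotl2 and Yap1 only the match and 12 bases on each side are shown, at chr8:112182538-112182567 on the plus strand and chr8:13451536-13451565 on the minus strand, because these stretches lie inside the annotated span of the gene.
Ccn1: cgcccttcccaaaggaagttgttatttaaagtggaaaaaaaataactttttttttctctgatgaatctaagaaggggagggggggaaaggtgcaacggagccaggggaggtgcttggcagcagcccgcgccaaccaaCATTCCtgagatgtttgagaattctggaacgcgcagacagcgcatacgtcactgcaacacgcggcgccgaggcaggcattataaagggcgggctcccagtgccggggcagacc
Ccn2: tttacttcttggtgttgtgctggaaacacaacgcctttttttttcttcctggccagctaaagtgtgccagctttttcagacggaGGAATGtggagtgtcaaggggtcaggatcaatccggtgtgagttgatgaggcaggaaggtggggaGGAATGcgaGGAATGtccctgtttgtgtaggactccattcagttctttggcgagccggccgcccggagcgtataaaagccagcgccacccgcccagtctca
Amotl2: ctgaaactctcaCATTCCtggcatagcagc
Yap1: agggagtctgcaGGAATGtaacgacgcgca
The Ccn2 stretch held 3 matches, beginning 166, 101 and 92 bases before the start, all as GGAATG on the strand of the gene. The 2 nearest to the start are separated by 3 bases. Ccn1 held 1 match, 113 bases before the start. Amotl2 held 1, 76 bases before its tabulated start, and Yap1 held 1, 116 bases before its own. These matches of Amotl2 and Yap1 lie inside the annotated span of the gene. The stretch of Wwtr1 held 0. The table of promoters had 5 of the 10 genes, of which 4 held a match. Among all 27457 tabulated promoters 11.8% held at least 1 match in the same window, and 25 held 3 or more. The AP-1 motif TGANTCA and the CArG box that binds SRF (CC, then 6 of A or T, then GG) had 0 matches in these 5 stretches, against 6.36% and 1.5% of all promoters. Both strands were searched, and no matches overlapped in these stretches. A match of 6 letters is a description of the sequence and does not show that a factor is bound in these cells.

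**Figure D2:**
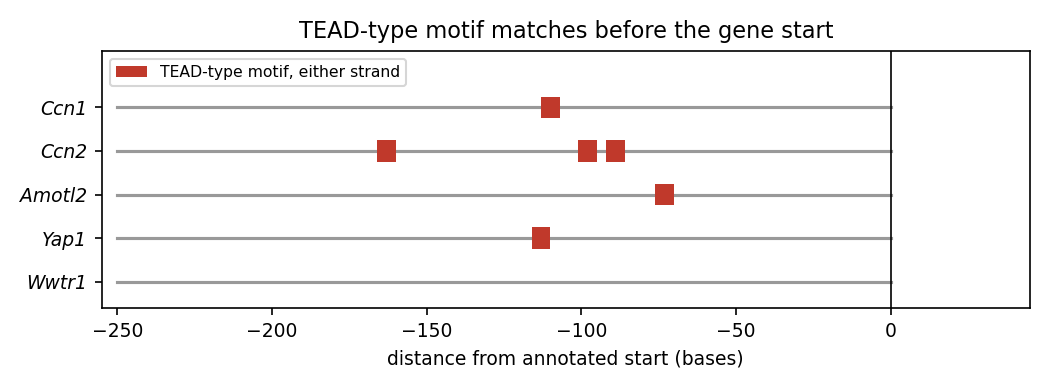
Matches to the TEAD-type motif (red blocks, either strand) along the 250 bases before the annotated start for the 5 genes with a tabulated promoter; the horizontal axis is the distance from the start in bases. Ccn2 has 3 matches, Ccn1, Amotl2 and Yap1 have 1 each and Wwtr1 has 0. The matches of Amotl2 and Yap1 lie inside the annotated span of the gene.

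The coactivators and their partner had moderate differences. Tead1, which codes for the TEAD factor TEF-1, had a level of 7.80 in co-cultured and 6.61 in mono-cultured NSCs, a difference of 1.19 or 2.27-fold. The mono-cultured Tead1 level lies just under the negative control level of 6.64. With it set to 6.64 the Tead1 level was 2.23-fold higher in co-culture, close to the measured difference. Wwtr1 (TAZ, gene ID 295062) had a level of 7.76 in co-cultured and 7.14 in mono-cultured NSCs, a difference of 0.62 with both levels above 6.64. Yap1 (gene ID 363014) had a level of 6.89 in co-cultured and 6.37 in mono-cultured NSCs, a difference of 0.52, the smallest of the set. Among the kept genes 10.5% had a difference as high as that of Yap1 or higher, and 8.68% had one as high as that of Wwtr1. The central 95% of the 399 positive control probe sets ran from -1.15 to 0.61 with a median of -0.16, so Yap1 lay inside that range and the other 9 genes lay above it, with Ankrd1, Wwtr1 and Amotl2 only just past its upper end. The negative controls, which are mostly dim, had a central 95% from -1.44 to 1.11, and 5 of the 10 genes lay inside it: Ccn3, Ankrd1, Amotl2, Yap1 and Wwtr1. The differences of Yap1 and Wwtr1 are thus of a size that control probe sets also reached on these arrays.

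Within the set, the YAP targets outside the CCN family, Ankrd1 and Amotl2, had smaller measured differences than Ccn1 and Ccn2. This does not hold for all YAP targets, since Ccdc80 of the wider signature below differed by 4.57. Ankrd1 (gene ID 27064), a nuclear ankyrin repeat protein of heart and muscle and a much-used YAP reporter gene, had a level of 4.72 in co-cultured and 4.10 in mono-cultured NSCs. Both Ankrd1 levels lay below 4.97 and inside the negative control range, and its difference was 0.61. Amotl2 (gene ID 65157), a junctional scaffold that binds YAP and restrains it, had a level of 6.68 in co-cultured and 6.05 in mono-cultured NSCs, a difference of 0.63. Its co-cultured level barely exceeded the negative control level, and with the mono-cultured level raised to 6.64 the Amotl2 difference was 0.04. Of the 4 textbook targets in the set, Ccn1 and Ccn2 were therefore far apart between the conditions, Amotl2 was within 2-fold and Ankrd1 was not measurable above background.

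**Figure D3:**
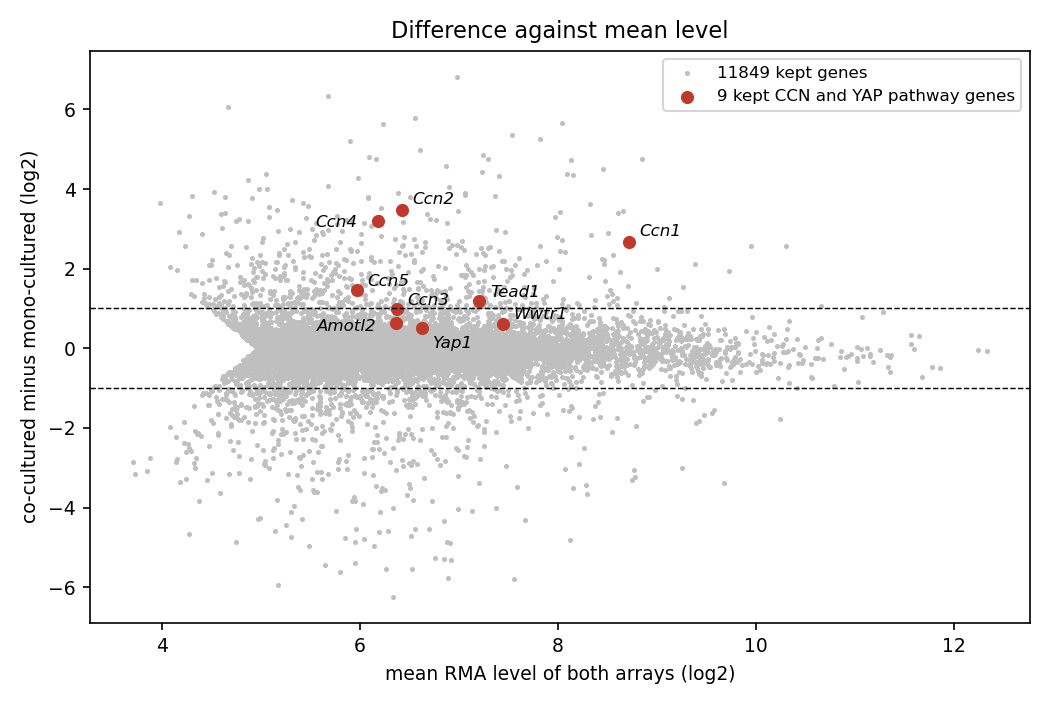
Difference between the conditions (co-cultured minus mono-cultured, log2, vertical axis) against the mean level of both arrays (log2, horizontal axis) for the 11849 kept genes (grey) and the 9 kept CCN and YAP pathway genes (red), with dashed lines at 2-fold. Ccn2 (3.47), Ccn4 (3.19) and Ccn1 (2.67) stand well above the upper line, whereas Yap1 (0.52), Wwtr1 (0.62) and Amotl2 (0.63) lie within the band of most genes.

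A wider signature of YAP and TAZ targets, 22 genes known from human tumours, was mixed. Of the 22 genes 21 were measured and 20 kept, with a median difference of 0.55. Of the 20, 6 were higher by 2-fold or more in co-culture and 1 was lower by as much. Among all kept genes the shares were 5.04% and 5.54%. This list and those below were chosen with earlier results of these data known, so nothing is read from their counts. Besides Ccn1 and Ccn2 the higher genes were Ccdc80, Dock5, Rbms3 and Myof. Ccdc80, a matrix protein of adipose and mesenchymal tissue, had a level of 9.16 in co-cultured and 4.59 in mono-cultured NSCs, a difference of 4.57, or 2.52 with dim levels raised. The exchange factor gene Dock5 differed by 2.41, the RNA-binding protein gene Rbms3 by 2.31 and the membrane repair gene Myof by 1.54. Dock5 and Rbms3 lay below 6.64 on both arrays. Of the higher genes, Ccn2, Ccdc80, Dock5 and Rbms3 reached the filter of 4.97 on the co-cultured array only. With dim levels raised to 6.64 the median of the signature was 0.047. Nt5e, which codes for the surface enzyme CD73, ran the other way, at 5.73 in co-cultured and 7.73 in mono-cultured NSCs, a difference of -2.003. The receptor kinase gene Axl, with a difference of 0.04, the kinase gene Nuak2 (-0.10) and the forkhead factor gene Foxf2 (0.33) were the kept genes nearest to 0. Nuak2 and Foxf2 lay below 6.64 on both arrays. Without Ccn1, Ccn2, Ankrd1 and Amotl2, 17 kept genes were left, with 4 at least 2-fold higher, 1 lower and a median of 0.51. Of the 18 signature genes outside the set 12 had a tabulated promoter, and 2 of these held the TEAD-type motif, those of Nuak2 and Ptpn14, a share of 16.7%.

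Of 15 genes for Hippo kinases and their scaffolds, which restrain YAP, all were kept. Of these 14 lay within 2-fold, as did 89.4% of all kept genes, 1 was at least 2-fold higher and 0 were lower, with a median difference of 0.05. The exception was Frmd6, a FERM-domain protein of the cell cortex, at 7.04 in co-cultured and 5.14 in mono-cultured NSCs, a difference of 1.90, or 0.40 with dim levels raised. The kinase genes Lats1 and Lats2, whose products phosphorylate YAP, differed by 0.35 and 0.51. Taok2 (-0.03), Sav1 (0.05) and Mob1b (0.05) were nearest to 0, all with levels below 6.64 on both arrays.

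Of 13 genes for proteins that bind YAP or TAZ at junctions or stand above the cascade as cadherins, 12 were kept, with a median of 0.52. Where 5.54% of all kept genes were 2-fold lower and 5.04% higher, 0 of these were lower and 2 were at least 2-fold higher. Both were large atypical cadherins: Fat4 was at 6.68 in co-cultured and 4.62 in mono-cultured NSCs (difference 2.05, or 0.04 with dim levels raised), and Fat1 differed by 1.09. Fat4 reached the filter of 4.97 on the co-cultured array only. The junction gene Tjp1 (0.08), the LIM protein gene Wtip (-0.18) and the 14-3-3 gene Ywhaz (0.23) were nearest to 0. Wtip lay below 6.64 on both arrays. Amotl2 and Ptpn14 stand on this list and on the signature, and with dim levels raised the median was 0.038.

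Among 8 genes for TEAD factors and the VGLL proteins that bind them as cofactors, 6 were kept. Of these 2 were at least 2-fold higher, Tead1 and Vgll3, where 5.04% of all kept genes were. Vgll3, a TEAD cofactor, had a level of 8.33 in co-cultured and 4.43 in mono-cultured NSCs, so it reached the filter of 4.97 on the co-cultured array only. Its difference was 3.91, and 1.69 with the mono-cultured level raised to 6.64, where Ccn1 had 2.67 and Ccn2 1.52. Tead2, Tead3 and Tead4 differed by 0.37, 0.75 and 0.76, all with levels below 6.64 on both arrays, and Vgll4, which restrains YAP, differed by -0.10. The list median was 0.76, and with dim levels raised it was 0, since 3 of the 6 kept genes lay below 6.64 on both arrays and Vgll4 was lower.

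SRF and its MRTF coactivators also drive Ccn1 and Ccn2 in other cells, and 10 of the 12 listed factors and cytoskeletal targets were kept. Of these 2 were at least 2-fold higher, the non-muscle myosin gene Myh9 (1.27) and the filamin gene Flna (1.13), and 0 were lower. The median was 0.61. Among all kept genes 5.04% were at least 2-fold higher and 5.54% were 2-fold lower. Srf itself differed by 0.29 and the actin genes Actb and Actg1 by 0.11 and 0.30.

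Of 13 genes for surface proteins known to bind CCN proteins, 12 were kept, with 0 at least 2-fold higher and 2 lower, and a median of 0.23. The shares of all kept genes were 5.04% higher and 5.54% lower. Itgb1, the integrin beta1 chain, differed by 0.80, and the alpha chains Itgav and Itga6 by 0.19 and 0.00, with Itgb5 at -0.11. The lower genes were Itgam and Itgb2, the chains of the macrophage integrin that binds Ccn1 and Ccn2. Itgam had a level of 3.52 in co-cultured and 8.38 in mono-cultured NSCs (difference -4.86). Itgb2 was 4.64 in co-cultured and 8.32 in mono-cultured NSCs (difference -3.68). With dim levels raised these differences were -1.74 for Itgam and -1.68 for Itgb2. Both are genes of microglia and macrophages, Itgam being itself one of the markers listed for them. All 10 listed markers of these cells were lower by 2-fold or more in co-culture. Their median levels were 4.56 in co-cultured and 9.37 in mono-cultured NSCs. With dim levels raised, Aif1, below 6.64 on both arrays, came to 0 and P2ry12 to -0.79, and the other listed markers stayed past 2-fold.

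**Figure D4:**
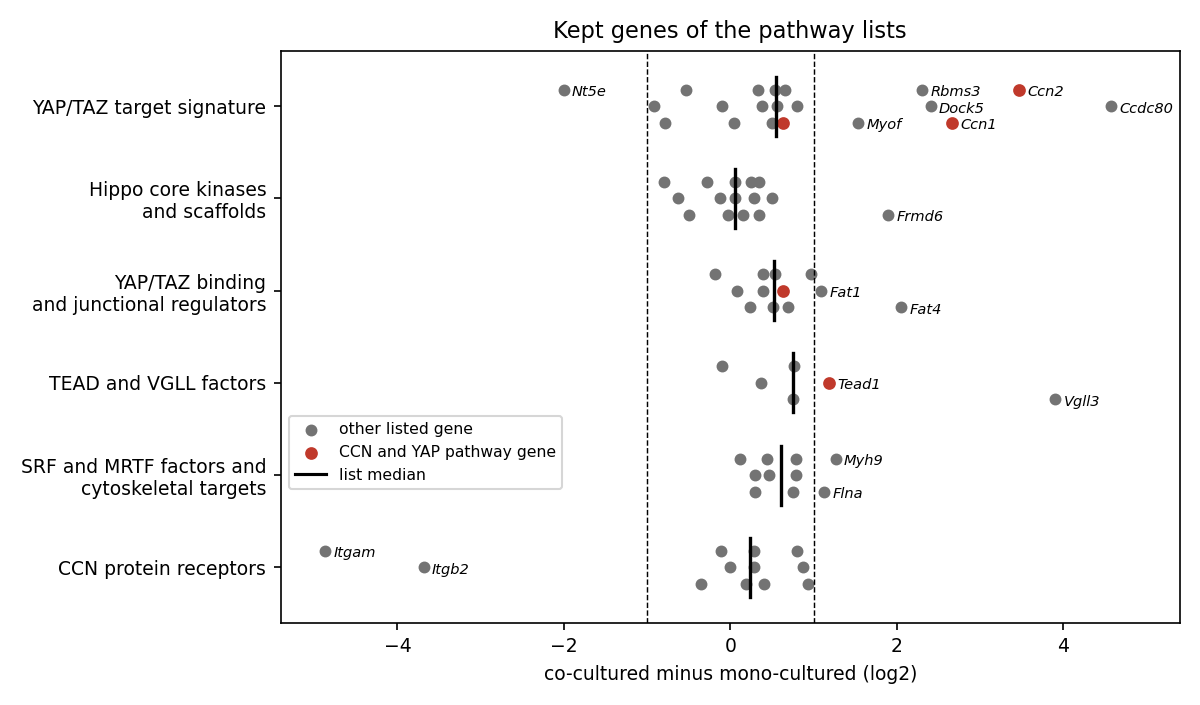
Difference between the conditions (co-cultured minus mono-cultured, log2, horizontal axis) of each kept gene in 6 pathway lists, with those of the 10 described genes that stand on a list in red, other genes in grey, list medians as black bars and 2-fold limits as dashed lines; vertical offsets within a list only separate points. Most points lie between the limits, with Ccdc80 (4.57), Vgll3 (3.91) and Ccn2 (3.47) far to the right and Itgam (-4.86) and Itgb2 (-3.68) far to the left.

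Markers of other cell types differed alongside the CCN genes. Of 12 mesenchymal and fibroblast markers, the class of the EMSC layer, 11 were higher by 2-fold or more in co-culture, with a median difference of 2.88. Among all kept genes 5.04% were at least 2-fold higher. The twelfth, Twist1, differed by 0.27. Fap, at 5.62 in co-cultured and 2.71 in mono-cultured NSCs, lay below 6.64 on both arrays. With dim levels raised its difference was 0. The collagen genes Col1a1, Col1a2 and Col3a1 differed by 4.75, 4.50 and 3.43, and the proteoglycan gene Dcn by 4.35. Summed on the linear scale the 12 markers gave 11231 in co-cultured and 1096 in mono-cultured NSCs, and 10 of them exceeded 6.64 in co-culture against 3 in mono-culture. Of 8 smooth muscle and pericyte markers 4 were kept and 3 were at least 2-fold higher, Acta2 (4.76), Cnn1 (1.40) and Tagln (1.28). Acta2 and Cnn1 reached the filter of 4.97 on the co-cultured array only. Cnn1, at 5.55 in co-cultured and 4.15 in mono-cultured NSCs, lay below 6.64 on both arrays. Cspg4 did too, and differed by -0.56. The others, Myh11, Des, Rgs5 and Kcnj8, were below 4.97 on both arrays. The summed level of the 8 markers was 1301 in co-cultured and 322 in mono-cultured NSCs. Only Acta2 (9.67) and Tagln (8.31) exceeded 6.64 in co-culture, and only Tagln (7.03) did in mono-culture, so the sums do not describe the whole class. The part of these cells in the CCN and YAP pathway differences was not tested.

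The labelled cell type was checked against 10 neural stem and progenitor markers. Of 8 kept markers 0 were at least 2-fold higher and 3 were 2-fold lower, where 5.04% and 5.54% of all kept genes were. The 3 lower markers were Slc1a3 (-2.50), Fabp7 (-1.95) and Sox9 (-1.66), and the median of the 8 was -0.57. The number above 6.64 was 6 in co-culture and also 6 in mono-culture. Sox2 was 8.69 in co-cultured and 8.83 in mono-cultured NSCs, Nes was 8.25 in co-cultured and 7.45 in mono-cultured NSCs, and Vim, also found in mesenchymal cells, differed by 0.34. Fabp7 was 7.81 in co-cultured and 9.76 in mono-cultured NSCs, Msi1 differed by -0.997, and Pax6 and Prom1 were below 4.97 on both arrays. The summed level of the 10 markers was 4752 in co-cultured and 5541 in mono-cultured NSCs, and without Vim, a choice made after its level was seen, it was 1340 in co-cultured and 2852 in mono-cultured NSCs. The 10 microglia and macrophage markers summed to 378 in co-cultured and 7282 in mono-cultured NSCs, with Csf1r at -5.77, C1qb at -5.79, C1qa at -3.24 and C1qc at -2.93. Of 8 endothelial markers 7 were measured and none exceeded 6.64 on either array, with Pecam1 at -1.48, Cdh5 at 0.96, Kdr at -0.41 and Tek at -0.39.

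The kept genes whose difference lay nearest to that of Ccn2 were the secreted sushi-repeat gene Srpx2, the protease gene Pappa, whose product cleaves IGF-binding proteins, and the Wnt antagonist gene Sfrp1. Their differences were 3.47, 3.44 and 3.44, within 0.03 of Ccn2. Likeness is measured over 2 arrays only, and the mono-cultured levels of Ccn2, Srpx2 and Pappa lay below 6.64. With dim levels raised the differences were 1.52 for Ccn2, 0.25 for Srpx2, 2.07 for Pappa and 3.44 for Sfrp1, so the likeness did not hold. Of the 10 neighbours of the CCN genes in the RefSeq gene order of GRCr8, taken among the measured genes, 6 were kept and 4 of these lay within 2-fold. Next to Ccn1, Znhit6 differed by -0.22 and Ddah1 by 0.51. Next to Ccn4, Ndrg1 differed by 0.76 and the leukocyte adaptor gene Sla by -2.28. Next to Ccn5, Ada differed by -0.35, and the other neighbour, Kcnk15, was below 4.97 on both arrays, as were both neighbours of Ccn3, Mal2 and Gapdh-ps95. Enpp1, which lies next to Ccn2 and codes for an enzyme that makes pyrophosphate, was at 8.41 in co-cultured and 4.60 in mono-cultured NSCs, a difference of 3.81, while the other neighbour of Ccn2, LOC102553457, was below 4.97 on both arrays.

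Under other normalizations the large differences moved little. Filters choose genes without altering levels, and the probe set rule changes nothing where a gene has 1 probe set. Median centring shifts all differences by the same amount. These settings therefore could not test the differences. Ccn2 stayed between 3.47 and 3.54, Ccn4 between 3.19 and 3.27 and Ccn1 between 2.67 and 2.74. With dim levels raised, Ccn1 (2.67) came first, followed by Ccn2 (1.52), Tead1 (1.16), Ccn4 (1.14) and Wwtr1 (0.62), and 4 of the 9 kept genes were at least 2-fold higher. The size of the Ccn2, Ccn4 and Ccn5 differences thus depends on how dim levels are treated, and that of Ccn1 does not.

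**Figure D5:**
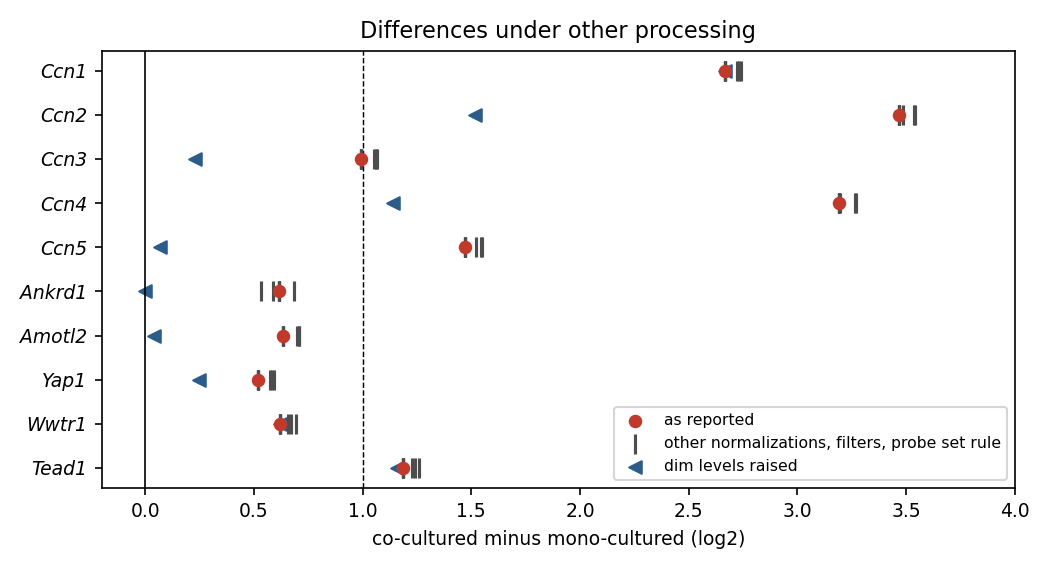
Difference between the conditions (co-cultured minus mono-cultured, log2, horizontal axis) of the 10 genes as reported (red), under other normalizations, filters and the other probe set rule (grey bars) and with dim levels raised to 6.64 (blue triangles); the dashed line marks 2-fold. Filters and the probe set rule leave these differences unchanged by construction. Raising dim levels takes Ccn2 to 1.52, Ccn4 to 1.14 and Ccn5 to 0.07 and leaves Ccn1 at 2.67.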

How the data were processed

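Total RNA of 1 co-cultured and 1 mono-cultured sample (250 ng each) was converted to biotinylated cDNA with a whole-transcript kit and hybridised to 1 array per sample, as the labels' protocols state. The authors deposited 1 log2 value per transcript cluster and array. RMA is named in the submitters' processing notes, without software or version. RMA equalises the distributions of the arrays, so a shift of most genes cannot be seen, and it compresses low levels. Of 68842 transcript clusters, 23446 had 1 gene symbol in the platform annotation and 505 had several, which were left out; probe sets were averaged per gene. A gene was kept if its higher level reached the median of all gene levels. Differences are log2 levels, co-cultured minus mono-cultured, with a threshold of 2-fold; no p-value was computed. The members and lists were chosen with earlier results of these data known. Named are all members, each listed gene past 2-fold, the 3 kept genes per list nearest to 0, the 3 nearest to Ccn2, and up to 4 markers per cell type; Lats1, Lats2, Itgb1, Tead4, Ptpn14, Twist1, the other markers and the neighbours were named after their values were seen. Alternatives were median centring, quantile normalization (limma 3.58.1, R 4.3.3), a loess fit (span 0.4), other filters, raised dim levels, the brightest probe set and thresholds of 1.5-fold and 4-fold. The counting was tested on simulated data. Python 3.11.15, numpy 2.4.6, pandas 2.3.3 and statsmodels 0.14.6 were used. The number of arrays limits the precision.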

Additional observations from a re-analysis of the deposited data

How the results depend on the processing

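All 10 differences kept their sign under the other normalizations. Median centring raised every difference by the same amount, so it could not reverse any of them. Quantile normalization and the loess fit took Yap1, the smallest as reported, from 0.52 to 0.57 and 0.58. The filters and the probe set rule could not change the differences. With levels below 6.64 raised to it, a step that cannot reverse a sign, Ankrd1 came to 0 and the other 9 stayed above 0. Under median centring, quantile normalization and the loess fit, the genes of the set past 2-fold numbered 6 in place of 5. The added gene was Ccn3, at 1.06, 1.05 and 1.06. With 1.5-fold and 4-fold thresholds, the genes of the set past the threshold numbered 8 and 3 in place of 5. All kept genes numbered 2442 and 439 in place of 1254, and at 1.5-fold the signature genes 12 in place of 7. All kept genes past 2-fold numbered 729 with the filter at the negative control level and 389 with dim levels raised. With dim levels raised, the median difference was 0.62 in place of 1.19 for the set, 0.047 in place of 0.55 for the signature, 0.038 in place of 0.52 for the binding and junctional genes and 0 in place of 0.76 for TEAD and VGLL factors. That last median was 1.19 with the filter at the 75th percentile and also with the filter at the negative control level, where 3 genes were left. By construction, raised levels remove differences below 6.64. The signature without 4 genes of the set was chosen after seeing the data. No paired analysis was possible because each condition has 1 array. With 1 array per condition, no difference has an error, and levels under 6.64 cannot be told from background.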
